A study of Mus musculus with 6 samples.

Results

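Nfe2l2 encodes NRF2, a transcription factor of the antioxidant response. It was described here together with 9 genes of its pathway: Keap1, its inhibitor, and 8 of its textbook targets, Gclc, Gclm, Slc7a11, Txnrd1, Srxn1, G6pdx, Nqo1 and Hmox1. The 10 genes were chosen by name out of 53379 annotated genes, with earlier results of these data known. All 10 passed the filter on low counts that left 14537 genes to be tested. Nfe2l2 was picked because its level fell in these same libraries, so its own values are a description without a test, and the question was whether the other genes of the pathway followed it.

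The libraries came from tumour organoids of KPC mice, a model of pancreatic cancer, on the C57/Bl6 strain. Cre recombinase driven by the Pdx1 promoter, which is active in the cells that form the pancreas, switches on Trp53 R172H in these animals, and the tumour cells were grown as epithelial spheres in Matrigel domes in mouse complete organoid medium. Each of the lines 6, 23 and 34 gave 1 library labelled R172H/+ (Trp53LSLR172H/+, called heterozygous here, n = 3) and 1 library labelled R172H/LOH (Trp53LSLR172H/-, loss of heterozygosity, called LOH here, n = 3). All 6 carry Pdx1-Cre. A suffix, Nut, stands in the description of each LOH library and of no other. No label states its meaning, so whatever it stands for cannot be told apart from the genotype. Ages are not given in the sources used here, and the labels do not say whether the 2 libraries of a line came from separate cultures beyond their genotype. The p-values measure only the spread between these 6 samples.

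NRF2 is held at low levels by KEAP1, an adaptor that hands it to a CUL3 ubiquitin ligase for destruction. Oxidants and electrophiles modify cysteines of KEAP1, NRF2 then escapes, enters the nucleus and pairs with small MAF proteins on antioxidant response elements. Its targets make glutathione, reduce thioredoxin and peroxiredoxins, supply NADPH, and clear quinones and heme. In the pancreas, as in other epithelia, the pathway is known for its part in defence against oxidants and electrophiles. Much of the control of NRF2 lies in protein stability, which these RNA data do not measure.

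The libraries held 13680458 to 27917277 expected counts. Levels are given as CPM, which are counts scaled for library size with TMM factors, and 3 counts corresponded to 0.1 to 0.223 CPM. Protein-coding genes took 67.9% to 73.3% of the counts in the heterozygous and 61.4% to 67.2% in the LOH libraries. Trp53 itself had 76.3 to 86.5 CPM with the heterozygous and 47.4 to 73.5 CPM with the LOH genotype, and gene-level counts do not tell its alleles apart. Of the cell type markers, all 8 epithelial genes were tested, and their summed level was 3573 to 4158 TPM (the authors' abundance per length) in heterozygous and 2992 to 5215 TPM in LOH libraries. None of the 10 fibroblast and 6 endothelial markers passed the filter, their sums stayed at or below 0.88 TPM, and Col3a1, Thy1 and Emcn were at 0. The 8 acinar markers summed to 0.69 to 2.46 TPM. The 10 leukocyte markers summed to 35.7 to 41.9 TPM in heterozygous and 15.8 to 30.3 TPM in LOH libraries. Most of that was Cd14, which reached 39.6 TPM, while Adgre1, Lyz2 and Tyrobp were at 0. Cd68, the other leukocyte marker that was tested, went the other way, with 1.72 to 2.02 TPM in heterozygous and 2.61 to 10.76 TPM in LOH libraries (edgeR adjusted p 0.0713, DESeq2 adjusted p 0.00288). The part of the protein-coding share and of the leukocyte list in the results below was not tested, except that a fit restricted to the protein-coding table called the same number of members.

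The sequence that NRF2 and its MAF partner recognise has the core TGACNNNGC, and the windows that hold it are shown because the members differ in it. RefSeq windows of 300 bases (250 before to 50 after the annotated start, build GRCm38.p6) were found for 8 of the 10 genes; Gclc and Hmox1 had no entry. Searched on both strands, the core was present in 5 of these 8 genes, against 14.0% of 27025 genes with a window and 17.6% of 91 other genes of the pathway lists. The capitals mark the core. It reads as printed in Nfe2l2 and on the opposite strand in the other four. Positions count from the RefSeq start site as +1. For Srxn1 and G6pdx only the bases around the match are given. The G6pdx position counts from the RefSeq start at 74428880. Most of the gene's TPM (mean 87.5% in heterozygous and 92.9% in LOH libraries) came from G6pdx-201, which starts at 74429194. The printed G6pdx bases lie downstream of that start.
Nfe2l2 (chr2:75704664-75704913, minus strand, core from -240): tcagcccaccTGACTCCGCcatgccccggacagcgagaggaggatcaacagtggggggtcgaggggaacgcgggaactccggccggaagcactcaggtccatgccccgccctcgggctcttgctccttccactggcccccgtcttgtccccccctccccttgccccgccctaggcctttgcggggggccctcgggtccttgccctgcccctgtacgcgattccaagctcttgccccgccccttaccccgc
Gclm (chr3:122245307-122245556, plus strand, core from -134): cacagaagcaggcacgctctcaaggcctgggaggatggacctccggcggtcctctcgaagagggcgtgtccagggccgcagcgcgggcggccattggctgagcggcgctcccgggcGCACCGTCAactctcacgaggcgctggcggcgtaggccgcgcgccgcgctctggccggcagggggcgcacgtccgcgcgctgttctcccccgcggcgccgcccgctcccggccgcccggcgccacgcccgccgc
Txnrd1 (chr10:82858956-82859178, plus strand, core from -92): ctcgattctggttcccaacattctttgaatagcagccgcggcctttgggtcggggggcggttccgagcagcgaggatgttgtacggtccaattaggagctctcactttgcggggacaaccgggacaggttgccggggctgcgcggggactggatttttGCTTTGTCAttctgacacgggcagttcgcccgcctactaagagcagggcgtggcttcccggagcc
Srxn1 (chr2:152105542-152105570, plus strand, core from +29): gcagtgggcaGCTAGGTCAgagtgagaca
G6pdx (chrX:74428919-74428947, minus strand, core from -57): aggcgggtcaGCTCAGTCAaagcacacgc
Written 5′ to 3′ on the strand where it starts with TGAC, the core is TGACTCCGC in Nfe2l2, TGACGGTGC in Gclm, TGACAAAGC in Txnrd1, TGACCTAGC in Srxn1 and TGACTGAGC in G6pdx. The stricter form TGACTCAGC, which is contained in the core, was in none of the 8 genes and in 0.503% of all genes with a window. Keap1, Nqo1 and Slc7a11 had no match in their windows, which says nothing of elements farther away. A match describes the letters and is no measurement of binding.

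Nfe2l2 (ENSMUSG00000015839.6, chromosome 2, 75675513 to 75704641, minus strand, GRCm38) was measured at 345.0 CPM in line 6, 356.4 CPM in line 23 and 342.5 CPM in line 34 (heterozygous). The R172H/LOH libraries of the same lines gave 105.8, 83.4 and 95.5 CPM. The heterozygous libraries lay within a narrow band, and every LOH library was far below it. The mean went from 347.97 ± 7.37 to 94.9 ± 11.2 CPM (SD, n = 3 each), so that LOH libraries held 27.3% of the heterozygous level (log2 fold change -1.87, SE 0.17). The log2 fold change lay between -1.79 and -2.26 under every scaling, filter, tool and left-out library that was tried. Since the RNA is bulk, fewer cells with the transcript and less transcript per cell cannot be told apart, here and for every gene below.

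The deposited transcript tables split Nfe2l2 into 2 transcripts. The protein-coding Nfe2l2-201 took 96.7% ± 0.249 of the gene's TPM in heterozygous and 94.9% ± 2.32 in LOH libraries (SD, n = 3 each). The remainder was Nfe2l2-202, a processed transcript without a reading frame, whose largest share was 7.74% in LOH line 23. Both transcripts were lower in LOH: Nfe2l2-201 averaged 166.9 and 34.5 TPM, and Nfe2l2-202 5.76 and 1.78 TPM, in heterozygous and LOH libraries.

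**Figure D1:**
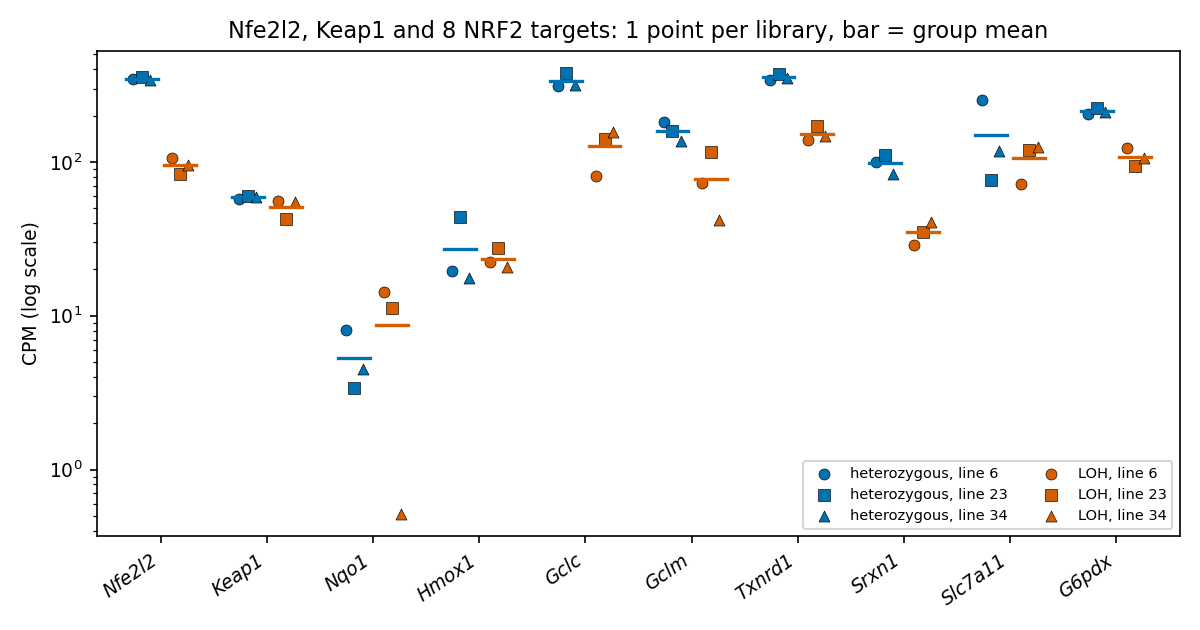
Level of the 10 genes in each library, in CPM on a log axis, with 1 point per library, colour for genotype, marker shape for organoid line, and a bar for the group mean. Nfe2l2, Gclc, Gclm, Txnrd1, Srxn1 and G6pdx separate the genotypes, as does Keap1 by a small margin, while Nqo1, Hmox1 and Slc7a11 overlap.

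Across the 9 other genes, 4 fell in LOH at an adjusted p under 0.05 in the edgeR quasi-likelihood test and none rose. These were Gclc, Txnrd1, Srxn1 and G6pdx. By the same test 5.21% of all genes tested were called, with 1.66% called as lower and 3.55% as higher in LOH, against 44.4% of the 9. The 9 were chosen with earlier results of these data known, so these shares are a description and no independent comparison. The median log2 fold change of the 9 genes was -0.98, beside 0.063 for all genes tested. At an unadjusted p under 0.05 the test took in 5 of the 9, the addition being Gclm, against 25.3% of all genes. In 6 of the 9, Keap1 and Gclm included, every LOH library lay below every heterozygous library, which held for 16.5% of all genes tested. Keap1, Nqo1, Hmox1 and Slc7a11 did not pass.

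With the organoid line as a block, edgeR called none of the 9 at an adjusted p under 0.05, where 1.47% of all genes were called and 0.248% were called as lower; 5 of the 9 had an unadjusted p under 0.05, against 20% of all genes. The fold changes of the 4 hardly moved, and their blocked adjusted p-values were 0.0735 for Gclc, 0.068 for Txnrd1, 0.0699 for Srxn1 and 0.107 for G6pdx. DESeq2 called 5 of the 9 without the block, Gclm added, and 5 with it. Those 2 fits called 14.1% and 9.65% of all genes. Leaving out any 1 of the heterozygous libraries left edgeR with no called gene among the 9, and also none among all genes, although 4 or 5 of the 9 and 2272 to 2966 of all genes had an unadjusted p under 0.05. Without LOH line 6, 4 of the 9 and 16.2% of all genes were called. Without LOH line 34 it was 4 of the 9 and 5.27% of all genes. Without LOH line 23 the calls of Gclc (0.0671) and G6pdx (0.0572) were lost, which left 2 of the 9, with 3.02% of all genes called.

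Glutathione synthesis begins with glutamate cysteine ligase, whose catalytic subunit is Gclc and whose modifier subunit is Gclm. Gclc (ENSMUSG00000032350.9, chromosome 9, 77754535 to 77794485, plus strand) had 311.7, 379.9 and 315.9 CPM (heterozygous) and 81.5, 140.9 and 156.0 CPM (LOH). Values given in threes, here and below, are in the order of lines 6, 23 and 34. Every LOH library was below every heterozygous one, and the lowest was LOH line 6. Gclc fell to 37.6% of the heterozygous level (log2 fold change -1.41, SE 0.27, edgeR adjusted p 0.036).

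Gclm (ENSMUSG00000028124.15, chromosome 3, 122245557 to 122270732, plus strand) had 180.6, 159.4 and 136.0 CPM (heterozygous) and 73.4, 116.1 and 42.1 CPM (LOH). The groups did not overlap, but the LOH libraries differed among themselves, with line 34 lowest and line 23 closest to the heterozygous range. Its log2 fold change of -1.04 (SE 0.36) did not pass in edgeR (adjusted p 0.132) and did in DESeq2 (adjusted p 0.0473). Gclm overlaps Gm17494 on the opposite strand, which took 1270 counts over the 6 libraries against 16874 for Gclm.

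Slc7a11, the cystine importer xCT that supplies cysteine for glutathione, had no common direction in the 3 lines. The gene (ENSMUSG00000027737.10, chromosome 3, 49892526 to 50443614, minus strand) had 253.3, 76.7 and 118.3 CPM (heterozygous) and 71.5, 120.2 and 125.2 CPM (LOH). The heterozygous library of line 6 stood above the other five, and the groups overlapped. The log2 ratio of LOH to heterozygous came to -1.82 (line 6), 0.65 (line 23) and 0.081 (line 34). Its log2 fold change of -0.50 (SE 0.45) did not pass (edgeR adjusted p 0.513), and was 0.083 without heterozygous line 6.

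Txnrd1 encodes the cytosolic thioredoxin reductase, a selenoprotein that passes electrons from NADPH to thioredoxin. It had (ENSMUSG00000020250.10, chromosome 10, 82833951 to 82897712, plus strand) 342.1, 373.5 and 351.3 CPM (heterozygous) and 138.2, 172.4 and 148.5 CPM (LOH). Within each genotype the 3 libraries lay close together, and the genotypes were well apart. Txnrd1 fell to 43.0% of the heterozygous level (log2 fold change -1.22, SE 0.17, edgeR adjusted p 0.019). Line by line the log2 ratio was -1.31 (6), -1.11 (23) and -1.24 (34). Eid3, which overlaps Txnrd1 on the same strand, took 272 counts over the 6 libraries against 35942 for Txnrd1.

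Of the 8 annotated Txnrd1 transcripts, 7 start within 300 bases of 1 of 3 RefSeq start sites. Grouped with the site at 82859206, downstream of the bases shown above, were 4 transcripts with annotated starts from 82859179 to 82859259. The first of these starts is that of Txnrd1-201, the transcript with the largest share. The 4 transcripts of the site at 82859206 summed to 151.9, 133.2 and 130.5 TPM in the heterozygous and 44.3, 52.5 and 41.9 TPM in the LOH libraries. That site carried most of the gene's transcripts in every library. The transcript from 82833951 had 2.69 to 3.91 TPM in heterozygous and 0.22 to 1.14 TPM in LOH libraries. The 2 grouped with the site at 82860341 had 2.54 to 7.31 and 0.58 to 1.39 TPM. At each of the 3 sites every LOH library was below every heterozygous one.

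Srxn1 encodes sulfiredoxin, which repairs overoxidised peroxiredoxins. The gene (ENSMUSG00000032802.8, chromosome 2, 152105516 to 152111376, plus strand) had 99.3, 110.4 and 84.1 CPM (heterozygous) and 29.0, 35.1 and 40.8 CPM (LOH). Even the highest LOH library, that of line 34, was below the lowest heterozygous library, of the same line. Srxn1 fell to 35.7% of the heterozygous level (log2 fold change -1.49, SE 0.21, edgeR adjusted p 0.0197).

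G6pdx encodes glucose-6-phosphate dehydrogenase, the first enzyme of the pentose phosphate pathway and a main source of NADPH for glutathione and thioredoxin reductases. It had (ENSMUSG00000031400.10, chromosome X, 74409483 to 74429194, minus strand) 205.9, 223.0 and 211.3 CPM (heterozygous) and 123.6, 93.6 and 106.4 CPM (LOH). The genotypes did not overlap. G6pdx fell to 50.5% of the heterozygous level (log2 fold change -0.98, SE 0.18, edgeR adjusted p 0.0313). Its annotation overlaps Ikbkg on the opposite strand, which took 6734 counts over the 6 libraries against 22395 for G6pdx, and the strand setting of the counting is not given in the sources used here.

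Nqo1, the quinone reductase often used as a readout of NRF2 activity, was low and variable. Its counts (ENSMUSG00000003849.8, chromosome 8, 107388225 to 107403206, minus strand) were 242, 46 and 135 (heterozygous lines 6, 23 and 34) and 245, 297 and 11 (LOH, same order). These are 8.07, 3.41 and 4.51 CPM against 14.3, 11.2 and 0.512 CPM. LOH lines 6 and 23 were above all heterozygous libraries, and LOH line 34 was below all of them. The log2 ratios were 0.81, 1.69 and -2.94, and the log2 fold change of 0.69 (SE 0.94) had an edgeR adjusted p of 0.673. With 1 library left out it ran from 0.086 (without LOH line 6) to 1.24 (without LOH line 34), and it was 0.080 with the block. On the log2(TPM + 1) scale the fold change was -0.10, on which scale the median of all genes was -0.35.

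Hmox1 encodes heme oxygenase-1, which degrades heme to biliverdin, iron and carbon monoxide. The gene (ENSMUSG00000005413.8, chromosome 8, 75093621 to 75100589, plus strand) had 19.7, 44.1 and 17.7 CPM (heterozygous) and 22.4, 27.4 and 20.8 CPM (LOH). The highest library was heterozygous line 23, and the other five lay between 17.7 and 27.4 CPM. Its log2 fold change of -0.20 (SE 0.37) did not pass (edgeR adjusted p 0.760), and was 0.32 without heterozygous line 23.

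Keap1 (ENSMUSG00000003308.15, chromosome 9, 21229730 to 21239361, minus strand), the inhibitor of NRF2, had 57.3, 60.02 and 59.1 CPM (heterozygous) and 55.7, 42.4 and 54.5 CPM (LOH). The groups did not overlap, but the margin was small, and only LOH line 23 stood clearly lower. The log2 fold change of -0.21 (SE 0.18) did not pass (edgeR adjusted p 0.498). Its main transcript, Keap1-205, took 51.4% ± 3.78 of the gene's TPM in heterozygous and 55.7% ± 1.92 in LOH libraries (SD, n = 3 each). Keap1 overlaps the antisense gene Gm16754, which took 261 counts over the 6 libraries against 7546 for Keap1.

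**Figure D2:**
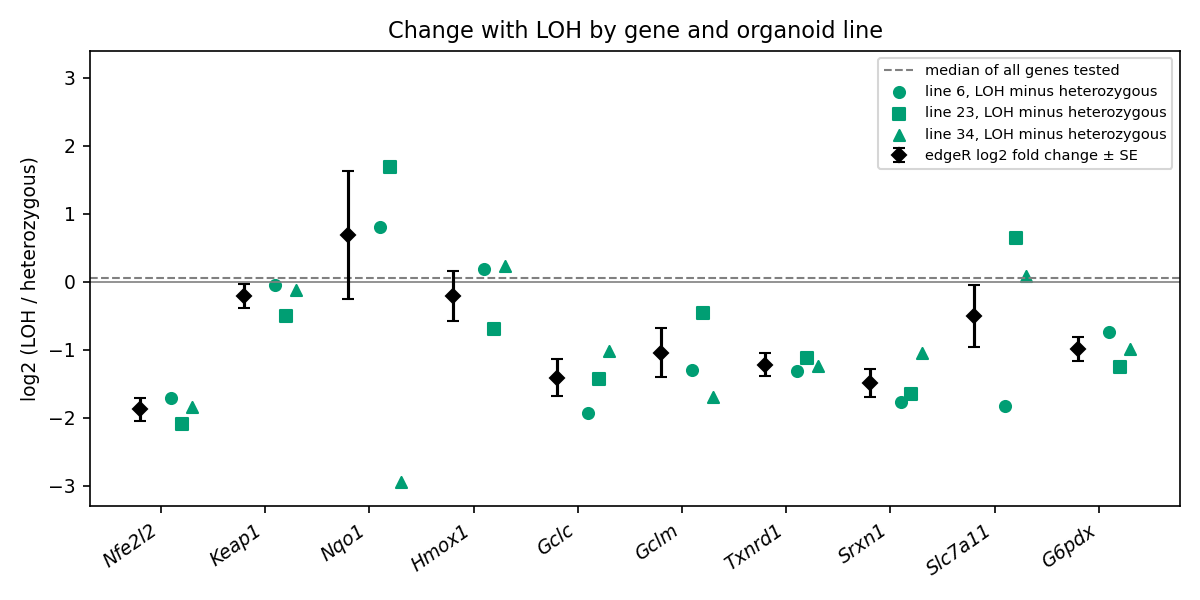
Change of each gene with LOH on the log2 scale: black diamonds are the edgeR log2 fold changes with their SE, green symbols the ratio within each organoid line, and the dashed line the median of all genes tested. Txnrd1 has ratios of -1.11 to -1.31 in the 3 lines, whereas those of Nqo1 run from -2.94 to 1.69.

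Levels can be compared between genes only per length, for which TPM was used. In the heterozygous libraries Nfe2l2 came first with 172.7 ± 18.1 TPM, followed by Gclm (159.4 ± 15.997), Txnrd1 (147.8 ± 14.3), Gclc (119.6 ± 11.2) and G6pdx (105.5 ± 11.3 TPM, SD, n = 3 each). Each of these differed from its neighbour in the order by less than the sum of their SDs, except Txnrd1 from Gclc. Srxn1 (42.7 ± 5.79), Slc7a11 (23.2 ± 14.5), Keap1 (22.3 ± 2.05) and Hmox1 (21.3 ± 10.004 TPM) came next, again with neighbours within their SDs, and Nqo1 was lowest at 4.47 ± 2.57 TPM. In the LOH libraries Gclm (64.4 ± 32.1), Txnrd1 (48.1 ± 6.74), G6pdx (39.3 ± 8.32), Nfe2l2 (36.3 ± 6.46) and Gclc (33.6 ± 8.74 TPM) followed each other within their SDs. Below them came Keap1 (15.3 ± 2.59), Hmox1 (14.4 ± 2.58), Srxn1 (11.6 ± 0.737), Slc7a11 (11.5 ± 2.01) and Nqo1 (5.61 ± 4.81 TPM), also with neighbours within their SDs. TPM values of the median gene were lower in LOH libraries by 0.35 on the log2(TPM + 1) scale, so levels are ordered here within a genotype only. Nfe2l2 came first among the 10 in the heterozygous libraries and between G6pdx and Gclc in the LOH libraries. Its neighbours lay within the SDs in both orders, so these places are not resolved. Nfe2l2 was picked for its fall in these libraries, so its lower place restates that choice.

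Likeness to Nfe2l2 was measured as the root mean square distance between log2 CPM values, each centred on its gene's mean over the 6 libraries, among the 10074 tested genes whose mean reached 5 CPM. Srxn1 was at 0.30 (rank 23), Txnrd1 at 0.38 (rank 64), Gclc at 0.43 (rank 112) and G6pdx at 0.44 (rank 139). Gclm had rank 840, Keap1 3019, Slc7a11 5018, Hmox1 5327 and Nqo1 9486. The 9 genes were thus spread over nearly the whole range of ranks. The distance includes the step between genotypes for which Nfe2l2 was picked. A place close to Nfe2l2 therefore largely restates a similar fall and is no separate result. Among the LOH libraries the order of Nfe2l2 (line 23 lowest, line 6 highest) was shared by G6pdx and Keap1, while Gclc, Txnrd1 and Srxn1 were lowest in line 6 and Gclm in line 34.

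The 5 genes closest to Nfe2l2 by this measure were Bax, Amotl2, Tubb2a, Cenpv and Lzic. Bax, a pro-apoptotic protein of the BCL2 family, was at a distance of 0.14, with 83.6, 95.1 and 92.3 CPM (heterozygous) and 32.2, 19.3 and 22.7 CPM (LOH). Amotl2, an angiomotin family protein of cell junctions, was also at 0.14 and had 116.4 ± 13.2 CPM (heterozygous) and 34.4 ± 1.89 CPM (LOH). Tubb2a (a beta tubulin), Cenpv and Lzic were at 0.22. All 5 had lower values in each LOH library than in any heterozygous one, which the choice by likeness brings with it.

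**Figure D3:**
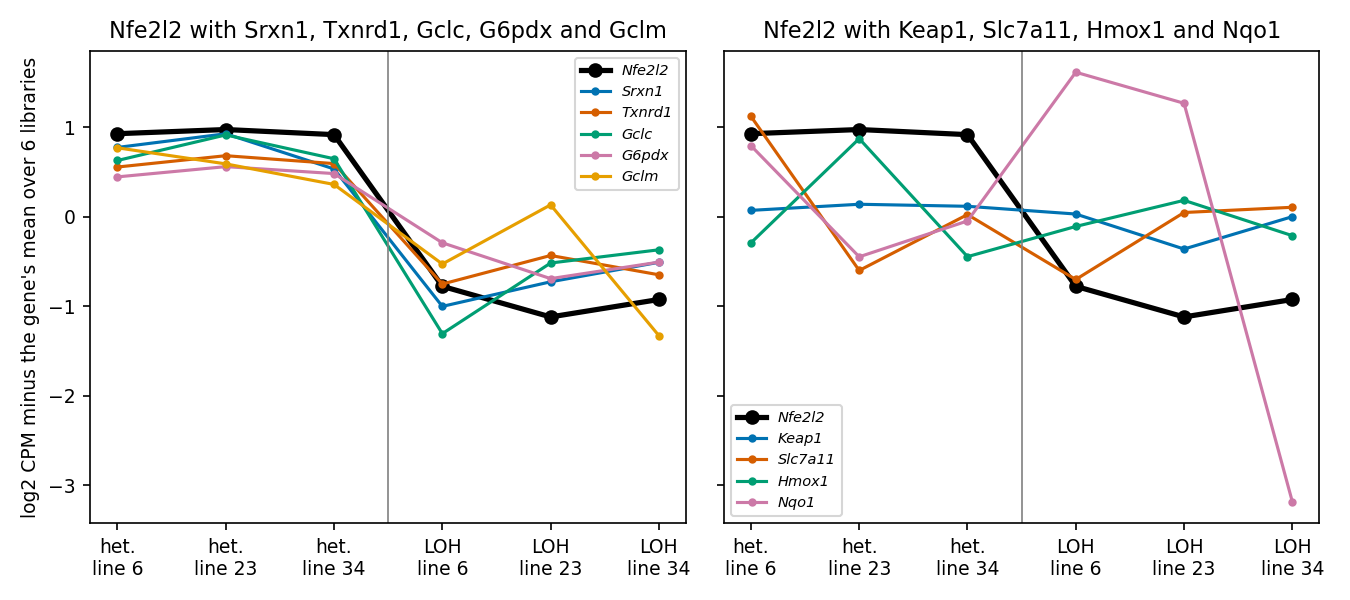
log2 CPM of each gene minus its mean over the 6 libraries, with Nfe2l2 as the thick black line in both panels, libraries on the horizontal axis and a vertical line between the genotypes. Srxn1, Txnrd1, Gclc, G6pdx and Gclm step down with Nfe2l2, and Slc7a11, Hmox1 and Nqo1 vary by library instead.

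The genes that act on NRF2 were examined as a list of 22 beside Keap1: small MAF partners, competing factors, and the ligases and adaptors that control its stability. Of the 21 tested, edgeR called none, none had an unadjusted p under 0.05, and DESeq2 also called none. Over all genes these shares were 5.21%, 25.3% and 14.1%. Their median log2 fold change was 0.16. Sqstm1, the autophagy receptor p62 that can sequester KEAP1, had 136.8 ± 41.2 and 152.8 ± 19.6 CPM. Nfe2l1, a related factor, had 131.2 ± 8.51 and 152.2 ± 19.8 CPM, Dpp3, a KEAP1 binding protein, 102.6 ± 7.86 and 119.8 ± 20.2 CPM, and Cul3 85.3 ± 22.4 and 98.6 ± 34.7 CPM (heterozygous and LOH, SD, n = 3 each). Without LOH line 6, 2 genes of the list passed in edgeR: Bach1, a repressor that competes for the same elements, at a log2 fold change of 1.22 (adjusted p 0.0206, against 0.274 with all libraries), and Pgam5 at -0.92 (adjusted p 0.0220, against 0.212). The fit without LOH line 6 called 16.2% of all genes. Bach1 and Pgam5 were named after their values were seen.

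Around the 8 targets, 85 tested genes of 6 role lists were counted: glutathione, thioredoxin, NADPH, detoxification, heme and iron, and superoxide and peroxide. The edgeR test called 7 of them (8.24%, against 5.21% of all genes), of which 4 fell and 3 rose. Their median log2 fold change was -0.20. In 28 of the 85 (32.9%) every LOH library was below every heterozygous one, and 34 (40%) were lower in all 3 lines, against 16.5% and 21.6% of all genes tested. With the block 1 of the 85 was called, where 1.47% of all genes were called. DESeq2 called 21, of which 17 were lower, where it called 5.28% of all genes as lower. limma on log2(TPM + 1) called 27 of 83, of which 25 were lower, and on log2(TPM + 0.1) 25 of 83, of which 23 were lower. Those 2 fits called 16% and 14.7% of all genes, 13.7% and 12.5% as lower, and the median gene was at -0.35 and -0.42 in them. With any 1 heterozygous library left out edgeR called none of the 85 and 0% of all genes. Without LOH line 6 it called 22, and 16.2% of all genes. Without LOH line 34 it called 4, all higher, and 5.27% of all genes.

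None of 23 further glutathione genes passed in edgeR, 8 had an unadjusted p under 0.05, and DESeq2 called 4. Over all genes these shares were 5.21%, 25.3% and 14.1%. DESeq2 called Glrx, Glrx3 and Ggct as lower and Oplah as higher. Their edgeR log2 fold changes were -2.02, -1.03, -0.82 and 1.79, in that order. These were named after their values were seen. The median of the list was 0.059. The genes described next were named for their abundance. Gsr, glutathione reductase, had 291.3 ± 21.6 CPM (heterozygous) and 347.6 ± 1.85 CPM (LOH), and Gpx1 158.6 ± 13.2 and 195.97 ± 80.3 CPM. Gpx2, the gastrointestinal glutathione peroxidase, had 182.2 ± 32.9 and 273.5 ± 73.3 CPM, and Abcc3, an exporter of conjugates, 219.6 ± 29.96 and 155.4 ± 68.2 CPM.

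Of 15 further thioredoxin genes 2 rose and none fell (13.3% called, against 5.21% of all genes), and the median was -0.30. Txnip, the inhibitor of thioredoxin, had 90.4, 140.1 and 89.4 CPM (heterozygous) against 202.9, 512.9 and 332.9 CPM with LOH (log2 fold change 1.71, SE 0.37, edgeR adjusted p 0.0477, with the block 0.0564). Prdx5, a mitochondrial and peroxisomal peroxiredoxin, rose from 49.7 ± 5.39 to 95.5 ± 15.2 CPM (SD, n = 3 each, edgeR adjusted p 0.0443, with the block 0.117); it overlaps Trmt112 on the opposite strand. Both calls were lost without LOH line 23 (0.0811 for Txnip, 0.0833 for Prdx5) and without LOH line 34 (0.0734 and 0.0715). The abundant Prdx1, a classical NRF2 target, had 883.5 ± 132.0 and 567.3 ± 85.1 CPM and did not pass (adjusted p 0.107), nor did Prdx6 with 353.2 ± 30.6 and 205.2 ± 78.9 CPM.

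Among 12 further NADPH genes, 1 fell (8.33% called, against 5.21% of all genes). Pgd, the enzyme that makes the second NADPH of the pentose phosphate pathway after G6pdx, had 315.7, 250.4 and 223.9 CPM (heterozygous) against 118.4, 146.7 and 122.7 CPM with LOH (log2 fold change -1.03, SE 0.20, edgeR adjusted p 0.0378, with the block 0.115). Tkt, transketolase, had 1026 ± 130.4 and 691.3 ± 25.9 CPM and did not pass (adjusted p 0.1004). Idh1 and Me1, which make cytosolic NADPH by other routes, had log2 fold changes of 0.20 and -0.19. The list's median was -0.25.

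Of 20 further detoxification genes, Osgin1 fell, and no gene rose (5% called, against 5.21% of all genes). It is an oxidative stress induced growth inhibitor and had 61.6, 34.6 and 37.1 CPM (heterozygous) against 7.98, 16.05 and 7.4 CPM with LOH (log2 fold change -2.08, SE 0.39, edgeR adjusted p 0.0337, with the block 0.0846). Akr1a1 had 281.2 ± 39.5 and 254.1 ± 70.4 CPM, Ugdh 141.6 ± 24.5 and 216.2 ± 170.8 CPM, and Akr1b8 136.1 ± 27.1 and 121.2 ± 68.7 CPM. The median of the list was -0.27.

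Of 11 further heme and iron genes 1 rose and none fell (9.09% called, against 5.21% of all genes), and the median was -0.19. Slc40a1, ferroportin, the only known cellular iron exporter, had 19.5, 17.8 and 18.3 CPM (heterozygous) and 253.1, 114.4 and 109.3 CPM (LOH). It was the 1 gene of the 85 that edgeR called with the block too (log2 fold change 3.10, SE 0.37, adjusted p 0.0164, with the block 0.0341). Slc48a1, a heme transporter, had 75.5 ± 2.9 and 31.4 ± 11.2 CPM (adjusted p 0.0564), and Ftl1, the ferritin light chain, 2059 ± 221.1 and 1484 ± 162.2 CPM (adjusted p 0.164). Fth1, the heavy chain, had 356.5 ± 36.1 and 390.8 ± 112.8 CPM. Ferroportin and the ferritins are listed among NRF2 targets in textbooks. Here ferroportin rose, while the log2 fold change was -0.47 for Ftl1 and 0.13 for Fth1. A link of these values to Nfe2l2 was not tested.

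Of the 4 superoxide and peroxide genes 2 fell (50% called, against 5.21% of all genes). Cat, catalase, had 84.4, 90.8 and 91.1 CPM (heterozygous) against 51.98, 49.5 and 44.9 CPM with LOH (log2 fold change -0.86, SE 0.16, edgeR adjusted p 0.0352, with the block 0.133). Sod3, the extracellular superoxide dismutase, had 193, 72 and 191 counts in heterozygous and 1, 25 and 7 in LOH libraries, which is 6.05 ± 0.616 against 0.443 ± 0.454 CPM (SD, n = 3 each, adjusted p 0.0421, with the block 0.0862). Sod1 and Sod2 had log2 fold changes of -0.23 and -0.034. The calls of Pgd (0.0652), Osgin1 (0.0627), Cat (0.053) and Sod3 (0.0756) were lost without LOH line 34, and those of Pgd (0.0559) and Cat (0.062) also without LOH line 23.

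**Figure D4:**
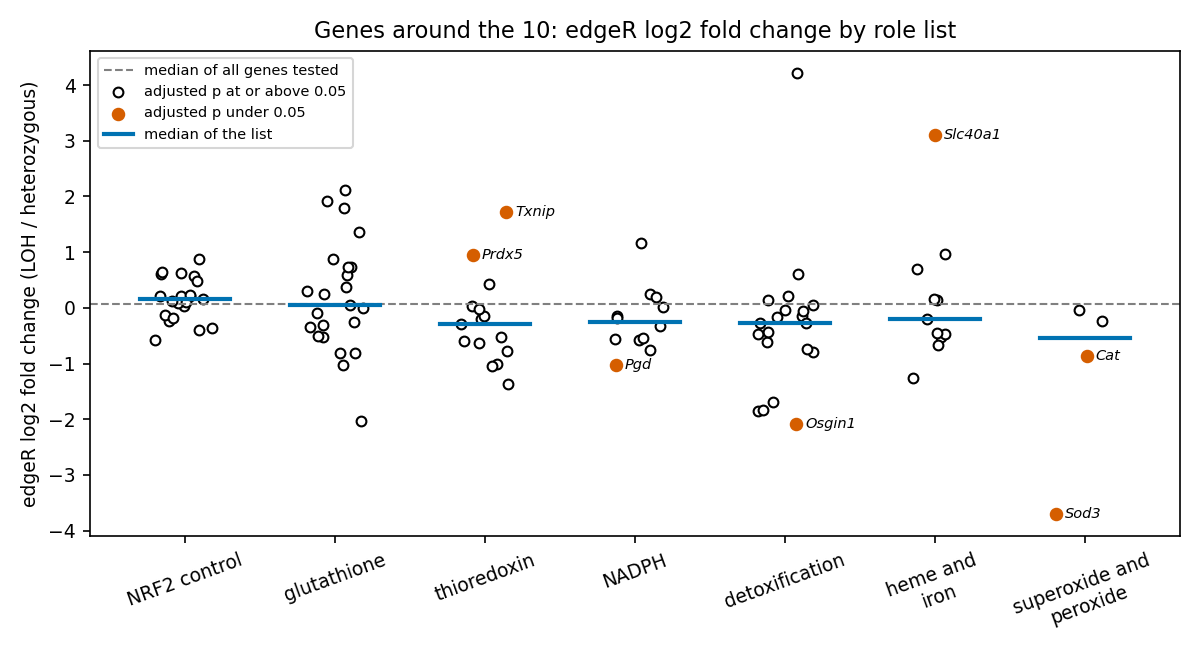
edgeR log2 fold change of the listed genes other than the 10, 1 point per gene, filled where the adjusted p was under 0.05, with a blue bar for the median of each list and a dashed line for the median of all genes tested. The control genes, with a median of 0.16, run from -0.58 to 0.88, and 7 genes of the other lists are filled, from Sod3 at -3.70 to Slc40a1 at 3.10.

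A panel of 32 further textbook NRF2 targets, drawn across these lists, gave 3 called genes, Pgd, Osgin1 and Cat, all lower (9.38%, against 1.66% of all genes called lower). Slc40a1, which rose and is also known as an NRF2 target, is not among the 32, so the common direction holds for the panel as it was drawn up. The median log2 fold change of the panel was -0.37. In 14 of the 32 (43.8%) every LOH library was below every heterozygous one, against 16.5% of all genes tested. Lower in all 3 lines were 16 (50%), against 21.6% of all genes tested. With the block none was called, 10 had an unadjusted p under 0.05, and DESeq2 without the block called 7. Over all genes these shares were 1.47%, 20% and 14.1%. With any 1 heterozygous library or LOH line 34 left out edgeR called none of the panel. Without LOH line 6 it called 6, and without LOH line 23 it called 2. Of all genes it called 0% without any 1 heterozygous library. Without LOH lines 34, 6 and 23 it called 5.27%, 16.2% and 3.02% of all genes. The panel's median was thus less low than that of the 8 targets described first, which was -1.01, and the difference between them was not tested.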

How the data were processed

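RNA of 6 organoid cultures was made into TruSeq Stranded Total RNA libraries, per the labels. The deposited gene and transcript tables hold expected counts, the authors' estimated counts from RSEM, and TPM, the authors' abundances scaled for length and depth, per the file headers. The submitters' processing notes name FastQC 0.11.5, STAR 2.5.2b, RSEM 1.3.0, DESeq2 1.44.0 and the build GRCm38.p5. The strand setting and read filters are not given in the sources used here. The transcript tables also hold the percent of a gene's abundance per transcript, as deposited by the authors; shares printed here were recomputed from TPM. The deposited normalized tables, in which the signal is a count scaled by the authors per library, served only to name 23525 genes and to define 17313 protein-coding ones. Coordinates are from GENCODE mouse annotation of GRCm38, and promoter windows from RefSeq.

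Expected counts were rounded, filtered with filterByExpr and scaled by TMM. The main test was the two-sided quasi-likelihood test of edgeR (version 4.0.16, R version 4.3.3). P-values were adjusted by Benjamini-Hochberg over all 14537 genes, with a threshold of 0.05. Log2 CPM used a prior count of 2. Alternatives were RLE scaling, no filter, protein-coding genes only, the organoid line as a block, each library left out, DESeq2 1.42.0, and limma 3.58.1 with TPM values, logged with a pseudocount of 1 or 0.1, where 3 libraries reached a TPM of 1. DESeq2 with the block was added after seeing the data. The fits were tested on simulated data. Python 3.11.15 drew the figures (matplotlib 3.10.9) from tables handled with pandas 2.3.3 and numpy 2.4.6.

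Titles give the organoid line, so equal numbers pair the samples. The correlation over genes (no independent replicates) of deviations from the group means was -0.295 for line 6, 0.009 for line 23 and 0.294 for line 34. It ran from -0.387 to 0.296 for libraries of unlike lines. The members and gene lists were chosen with earlier results of these data known. Named were the 10 genes, in each list the genes with an adjusted p under 0.05 with or without the block and then the most abundant up to 4, and the 5 genes most like Nfe2l2. Symbols matched for all 118 genes. The floor of 3 counts and the other count-based limits cover counting error only, since the reads have no molecular identifiers. A further allele that all 6 samples share and 1 marker gene are not reported here.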

Additional observations from a re-analysis of the deposited data

Results flagged for a closer look

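In Nqo1 the lines moved in opposite directions: the log2 ratio of LOH to heterozygous was 0.81 (line 6), 1.69 (line 23) and -2.94 (line 34), so that the highest and lowest line were 4.63 apart. In Slc7a11 the ratios were -1.82, 0.65 and 0.081 in the same order, a span of 2.47. In Hmox1 they were 0.18, -0.69 and 0.23, a span of 0.92. Each line has 1 library per genotype, so these differences between lines were not tested. The Nqo1 value of line 34 rests on 11 counts in the LOH library against 135 in the heterozygous one.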

How the results depend on the processing

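With the organoid line as a replicate block, edgeR called 0 of the 9 members (4 without it), 1 of the 85 genes of the role lists (7 without it) and 0 of the 32 panel genes (3 without it), and the cause was not tested. Of all genes, edgeR called 1.47% with the block and 5.21% without it. DESeq2 called 21 of the role list genes and 7 of the panel, and with the replicate block 15 and 6. The DESeq2 fits called 14.1% and 9.65% of all genes. limma on log2(TPM + 1) called 27 of the role list genes and 11 of the panel, and on log2(TPM + 0.1) 25 and 10, where these fits called 16% and 14.7% of all genes and the median gene was at -0.35 and -0.42. Without a filter edgeR called 5 panel genes, and 979 of all 27027 genes then tested. When 1 library was left out, the counts ran from 0 to 4 for the members and from 0 to 22 for the role lists. They ran from 0 to 2 for the control genes and from 0 to 6 for the panel. Those fits called 0% to 16.2% of all genes. With 2 libraries left in a group fewer samples give the spread. RLE scaling and the protein-coding table alone left 4 called members, as did no filter and both TPM fits. The direction turned for Nqo1 on log2(TPM + 1) (-0.10) and log2(TPM + 0.1) (-0.47), for Hmox1 without heterozygous line 23 (0.32; with 1 library left out the range was -0.45 to 0.32) and for Slc7a11 without heterozygous line 6 (0.083; range -0.82 to 0.083), and the cause was not tested in these cases. The log2 fold changes of Gclc, Gclm, Txnrd1, Srxn1 and G6pdx were below 0 in all of these settings. Depth limits the low genes most: Nqo1 had 11 counts in LOH line 34 and Sod3 had 1 count in LOH line 6.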

Other observations

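Within the LOH libraries, the detoxification genes were often lowest in line 34. Of 20 tested genes of that list other than Nqo1, 13 (65%) had their lowest LOH value there, against 31.1% of all genes tested. The highest LOH value was in line 23 for 12 of them, and for 4483 of all 14537 genes tested. The pattern was not particular to this list. The NRF2 target panel, which overlaps it, had 18 of 32 (56.2%) lowest in LOH line 34 and 17 highest in LOH line 23. In the other role lists 34.8% to 50% were lowest in LOH line 34. Ephx1, an epoxide hydrolase, had 32.3, 82.9 and 18.999 CPM in the LOH libraries of lines 6, 23 and 34, beside 137.9, 192.5 and 150.3 CPM in the heterozygous ones. Cbr3, a carbonyl reductase, had 31.7, 58.6 and 18.9 CPM beside 52.3, 75.8 and 53.4 CPM, and Aldh3a1, an aldehyde dehydrogenase, 2.33, 7.48 and 1.12 CPM beside 8.07, 19.4 and 8.21 CPM. In both genotypes these 3 genes were highest in line 23. None of the 3 passed the edgeR test between genotypes, with adjusted p-values of 0.085 for Ephx1, 0.31 for Cbr3 and 0.20 for Aldh3a1. The genes and the pattern were picked after their values were seen, and each LOH value is 1 library.

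Adh7, an alcohol dehydrogenase of the upper digestive tract, was low in all heterozygous libraries and varied widely among the LOH libraries. It had 0.73, 0.52 and 0.57 CPM in the heterozygous libraries, and 4.02, 30.5 and 0 CPM in the LOH libraries of lines 6, 23 and 34 (edgeR adjusted p 0.17). It was named after its values were seen.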
